A study of Mus musculus with 6 samples.

Results

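The genes described here encode the subunits of the constitutive proteasome, the chaperones that assemble it, and the proteins that activate or inhibit it. They were taken from the array's annotation by symbol, as every gene named Psma to Psmg with a number, leaving out the immunoproteasome subunits Psmb8, Psmb9 and Psmb10. The rule found 46 genes among the 18193 measured, on 99 probe sets, and a gene with several is given by the probe set that was brightest on average over the 6 arrays. The rule uses symbols and no measured value. Of the 46, 44 are parts or helpers of the proteasome. The other two carry a matching symbol only: Psmc3ip encodes a meiotic recombination cofactor that binds Psmc3, and Psme3ip1 a protein that binds Psme3. The activator gene Psme2 is not among them, because its probe set is annotated to several genes.

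The study put MN1, a transcriptional coregulator that causes myeloid leukemia in mice when overexpressed, or MN1VP16 into marrow cells of C57BL/6J mice that had received 5-fluorouracil at 150 mg/kg. After 48 hours of culture with interleukin 6, interleukin 3 and stem cell factor, those cells were transduced with the gammaretroviral vector pSF91, which carries GFP behind the insert, and given to irradiated mice of the same strain. The MN1 group (2 arrays) and the MN1VP16 group (2 arrays) are the GFP-positive marrow cells sorted 4 weeks later. The Gr1Mac group (2 arrays) is marrow sorted for Gr1 and CD11b, and the sources used here do not say whether its mice had been transplanted or carried a vector, nor is there an empty-vector group. All labels name the strain C57BL6. Each group is thus known by its sort and its insert alone, and GFP-positive cells of any lineage enter the MN1 and MN1VP16 groups. Total RNA was copied from its poly(A) end and hybridised to Affymetrix mouse expression arrays, and the values are log2 expression values.

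The proteasome degrades proteins that carry ubiquitin chains. Its 20S core is a barrel of alpha rings, which gate the entry, around beta rings, which hold the proteolytic sites. The 19S cap binds ubiquitin chains, removes them and unfolds the substrate: its base contains the ring of ATPases Psmc1 to Psmc6, and its lid contains the deubiquitinase Psmd14. The core and the base are each put together with the help of dedicated chaperones. In immune cells, inducible beta subunits can replace the constitutive catalytic ones and give the immunoproteasome, which is known for producing peptides for antigen presentation.

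To show what the promoters of these genes share, which the choice by symbol did not use, 4 of them follow: a chaperone gene with the third largest difference (Psmg1), an alpha subunit (Psma5), a base subunit (Psmd2), and the lid gene with the lowest difference (Psmd8). Each is the 250 bases before the annotated start, 5′ to 3′ on the gene's strand, from RefSeq (GRCm38.p6). They lie at chr16:95990961-95991210 on the minus strand (Psmg1), chr3:108256676-108256925 on the plus strand (Psma5), chr16:20651402-20651651 on the plus strand (Psmd2) and chr7:29180674-29180923 on the minus strand (Psmd8). Capitals mark any of 5 motifs found by a search of both strands: the NF-Y box CCAAT, the E-box CACGTG, the antioxidant response element core TGACNNNGC, the ETS core CGGAAG and the GC box GGGCGG.
Psmg1: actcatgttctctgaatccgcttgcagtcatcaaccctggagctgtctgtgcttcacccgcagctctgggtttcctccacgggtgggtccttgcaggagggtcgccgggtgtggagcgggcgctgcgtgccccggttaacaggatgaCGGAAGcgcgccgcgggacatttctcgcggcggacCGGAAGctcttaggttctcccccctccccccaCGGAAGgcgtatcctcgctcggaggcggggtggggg
Psma5: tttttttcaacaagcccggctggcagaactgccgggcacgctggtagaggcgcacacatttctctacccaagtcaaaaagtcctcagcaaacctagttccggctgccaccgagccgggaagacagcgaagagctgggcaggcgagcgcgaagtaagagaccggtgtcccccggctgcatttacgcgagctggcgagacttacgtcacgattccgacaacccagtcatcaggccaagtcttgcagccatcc
Psmd2: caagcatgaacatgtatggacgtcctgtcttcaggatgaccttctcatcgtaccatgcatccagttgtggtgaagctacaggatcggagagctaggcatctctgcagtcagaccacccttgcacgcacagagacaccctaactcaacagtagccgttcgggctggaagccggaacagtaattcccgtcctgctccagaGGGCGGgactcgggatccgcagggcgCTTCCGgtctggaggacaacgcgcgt
Psmd8: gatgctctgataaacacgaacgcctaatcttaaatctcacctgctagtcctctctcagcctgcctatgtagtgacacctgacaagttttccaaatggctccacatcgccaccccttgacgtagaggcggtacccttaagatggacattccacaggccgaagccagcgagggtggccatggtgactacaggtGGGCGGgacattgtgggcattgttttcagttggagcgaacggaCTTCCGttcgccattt
The Psmg1 promoter holds 3 ETS cores, those of Psmd2 and Psmd8 hold 1 ETS core and 1 GC box each, and that of Psma5 holds no match to any of the 5.

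A promoter sequence was found for 38 of the 46 genes and for 14452 of all measured genes. The ETS core, which ETS-family transcription factors bind, was present in 20 of the 38, that is 52.6% against 22.3% of all promoters of this length. It was found in 10 of the 17 promoters of genes called higher in MN1 than in Gr1Mac and in 10 of the 21 others. The other motifs were about as frequent as in all promoters: the NF-Y box 39.5% against 39.4%, the GC box 55.3% against 53.4%, the E-box 10.5% against 8.73%, and the antioxidant response element core, read by Nfe2l1 and Nfe2l2, 13.2% against 13.5%. The TATA box TATAAA stood in 7.89% against 10.5%, and the AP-1 site TGAGTCA in 2.63% against 4.73%. Matches can overlap, since GGGCGG and CGGAAG can share the letters CGG, and TGACNNNGC and the reverse complement of the AP-1 site can share TGAC. These are matches of letters, with no test.

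The arrays have the following properties that touch every result. The array medians lay between 5.36 and 5.43 log2 units, and arrays of the same group correlated at 0.98 to 0.99 over all genes. No detection calls were used, so a guide level of 5.84 was set after the values were seen, the highest reading of Xist on the arrays where Y-linked genes were bright; 44 of the 46 genes had a mean above it, and Psma8 and Psmb11 did not. Xist was high on both MN1 arrays and on Gr1Mac array 1, and the Y-linked genes Kdm5d and Eif2s3y were high on both MN1VP16 arrays and on Gr1Mac array 2. The Y-linked Uty followed the same split at lower readings, 5.08 to 5.36 against 3.90 to 4.05. All of these lay under the guide level, so a reading under it need not mean absence. The bright control features split the arrays another way, with both MN1 arrays and MN1VP16 array 1 on one side. Between MN1 and MN1VP16, the group and the sex pattern cannot be told apart. Gr1Mac array 1 read higher than Gr1Mac array 2 for 39 of the 46 proteasome genes, with a median gap of 0.42 log2 units, against 53.6% and 0.03 over all genes. No label ties an array to a mouse of its own, so a p-value may rest on technical spread alone.

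The cell type markers moved with the groups. Of 6 measured erythroid markers, 6 were called higher in MN1 than in Gr1Mac, and their mean level was 12.08 to 12.49 on the MN1 arrays, 9.10 to 10.08 on the MN1VP16 arrays and 7.05 to 7.23 on the Gr1Mac arrays. The 6 stem and progenitor markers were all called higher as well, with means of 10.88 to 11.06, 9.05 to 9.98 and 5.81 to 6.02, and in Gr1Mac 4 of them were at or under the guide level. The 4 mast cell and basophil markers, of which 3 were called higher, had means of 10.63 to 11.51, 8.99 to 10.30 and 5.01 to 5.91, with 2 at or under the guide level in Gr1Mac. The 9 measured granulocyte and monocyte markers ran the other way, at 12.14 to 12.85, 13.34 to 13.66 and 14.13 to 14.18, with 6 called lower in MN1. Markers of megakaryocytes, B cells, and T and NK cells had means between 4.82 and 8.42 on every array, with 1 megakaryocyte marker called higher and 1 T and NK cell marker lower in MN1. The part of the makeup of the cells in the differences below was not tested, and in such bulk RNA, fewer cells of a type and less RNA per cell cannot be told apart.

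Between MN1 and Gr1Mac cells, 21 of the 46 genes were called higher in MN1 (limma, Benjamini-Hochberg adjusted p under 0.05 over all genes), 0 were called lower and 25 were not called, where 17.3% of all genes were called higher and 12.0% lower. As shares, 45.7% of the proteasome genes were called higher. Without the dimmest 40% of genes, 21 of 44 proteasome genes were called higher, against 27% of all genes left. The median difference of all genes left was 0.085. The differences among the 21 ran from 1.52-fold to 6.42-fold, 12 of them above 2-fold, with adjusted p from 0.00129 to 0.0496. The median difference over all 46 was 0.65 log2 units, against -0.06 over all genes, and 43 of the 46 lay above 0. On 38 of the 46 both MN1 arrays read above both Gr1Mac arrays, which held for 30.9% of all genes, and on 0 both read below, which held for 35.8%. At an unadjusted limma p under 0.05, 30 of the 46 differed, as did 7243 of all 18193 genes. Psmd7, Psmg2 and Psmg1 had the largest differences, and Psmd8, Psme4 and Psme1 were the 3 below 0.

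**Figure D1:**
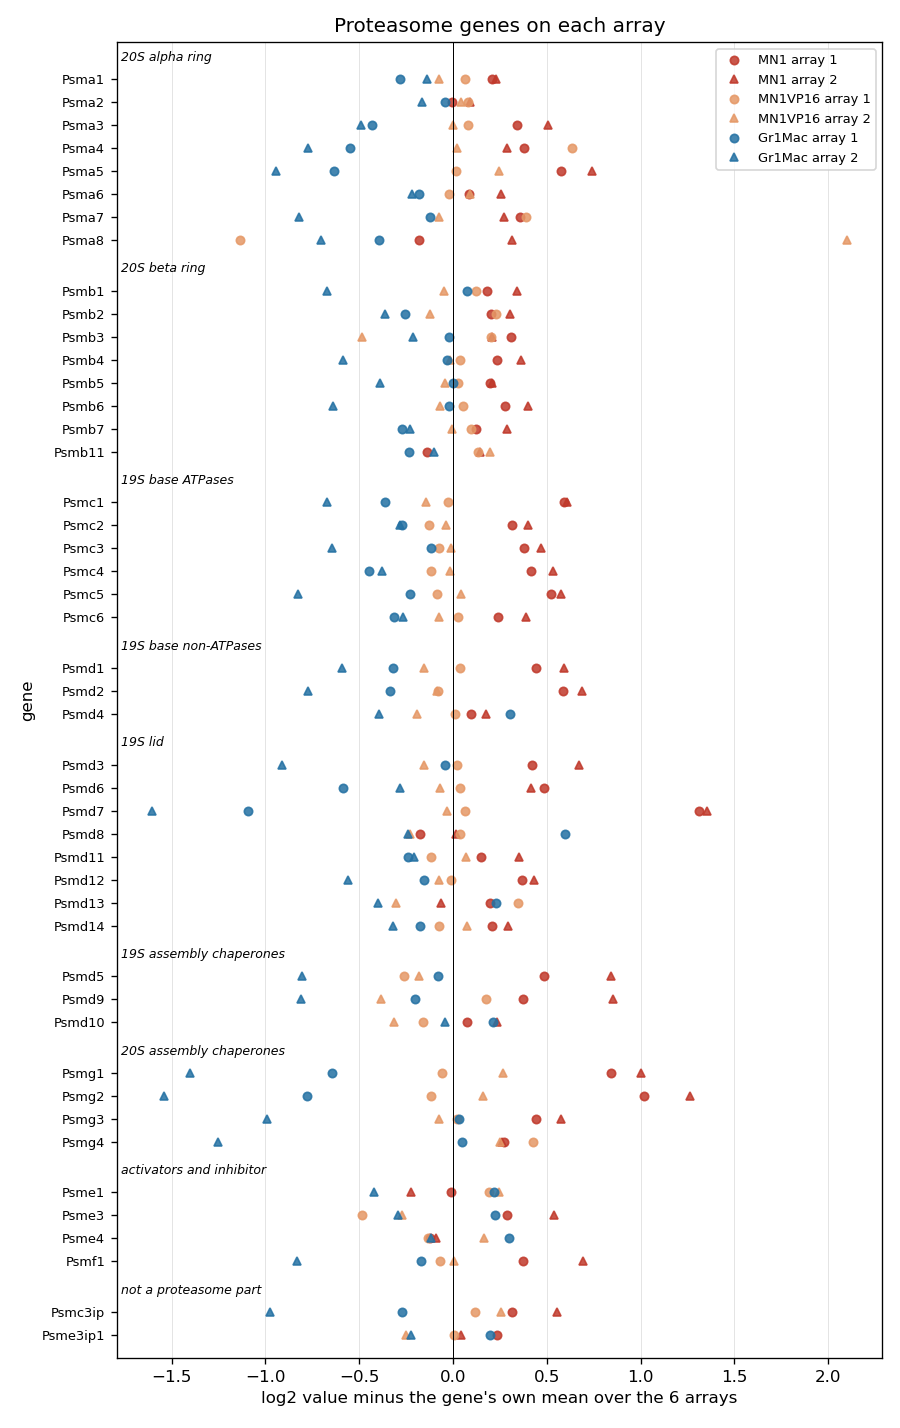
Each row is a proteasome gene, and each point its log2 value on one array minus the gene's mean over the 6 arrays; colour marks the group and shape the array number. MN1 arrays (red) lie to the right of Gr1Mac arrays (blue) in 38 of 46 rows without overlap, and Psmd7, Psmg1 and Psmg2 are spread most widely after Psma8, whose MN1VP16 array 2 stands alone on the right.

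Without Gr1Mac array 1 the median difference was 0.87, and without Gr1Mac array 2 it was 0.50. It was 0.74 without MN1 array 1 and 0.60 without MN1 array 2. Over all genes these medians ran from -0.075 to -0.018. The Xist-high arrays are 2 of MN1 and a single one of Gr1Mac, so values within that sex pattern are those without Gr1Mac array 2: a median difference of 0.50, with 39 of the 46 above 0. No control feature side holds arrays of both groups. That split as a block in the fit compares them only through the MN1VP16 arrays. With it 4 of the 46 were called higher, against 5.02% of all genes, and the median was 0.65.

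The alpha ring was higher in part. Psma5, an alpha subunit, read 12.28 and 12.44 (MN1), 11.72 and 11.94 (MN1VP16) and 11.07 and 10.76 (Gr1Mac). The 3 groups did not overlap, and MN1 exceeded Gr1Mac 2.72-fold (95% interval 1.99 to 3.73, limma adjusted p = 0.00362). A further bright Psma5 probe set rose by 1.24 log2 units, while the remaining one stayed under the guide level on every array. Psma3 (0.89 log2 units) and Psma4 (0.99) were also called, the other 5 alpha genes were not, and the median of the 8 was 0.70. Psma2 had the smallest difference of the ring: it read 12.00 and 12.09 (MN1), 12.08 and 12.04 (MN1VP16) and 11.95 and 11.83 (Gr1Mac), a difference of 0.15 with a 95% interval of -0.22 to 0.52. The 6 arrays lay close together. Psma8, the alpha subunit known from germ cells, read 5.08 and 5.58 (MN1), 4.13 and 7.36 (MN1VP16) and 4.87 and 4.56 (Gr1Mac). It was above the guide level on MN1VP16 array 2 alone, and its difference between MN1 and Gr1Mac had an interval of -1.72 to 2.96.

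None of the 8 beta ring genes was called, yet all 8 differences were above 0, with a median of 0.51, and 4 had an unadjusted p under 0.05. The catalytic subunits are Psmb6, with the caspase-like site, Psmb7, with the trypsin-like site, and Psmb5, with the chymotrypsin-like site that bortezomib blocks. Psmb6 read 11.36 and 11.47 (MN1), 11.13 and 11.01 (MN1VP16) and 11.05 and 10.44 (Gr1Mac), a difference of 0.67 (interval 0.10 to 1.24, limma adjusted p = 0.0825). Psmb7 read 10.90 and 11.06, 10.87 and 10.76, and 10.50 and 10.54 in the same order of groups, a difference of 0.46 (adjusted p = 0.0744 by limma). Psmb5 read 11.70 and 11.71, 11.52 and 11.46, and 11.50 and 11.11, a difference of 0.40 with an interval of -0.05 to 0.84. For each of the 3, both MN1 arrays read above both Gr1Mac arrays, and the lower of the Gr1Mac readings was array 2 for Psmb5 and Psmb6. Psmb11, the thymus-specific subunit, read between 3.70 and 4.13 on all 6 arrays, under the guide level. The result in the beta ring rested on the arrays and probe sets used. With the mean of each gene's probe sets, 3 of the 8 were called, against 16.3% of all genes. The median was 0.60 without Gr1Mac array 1. Without Gr1Mac array 2 the median fell to 0.30, Psmb5 was at 0.21 and Psmb6 at 0.36.

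**Figure D2:**
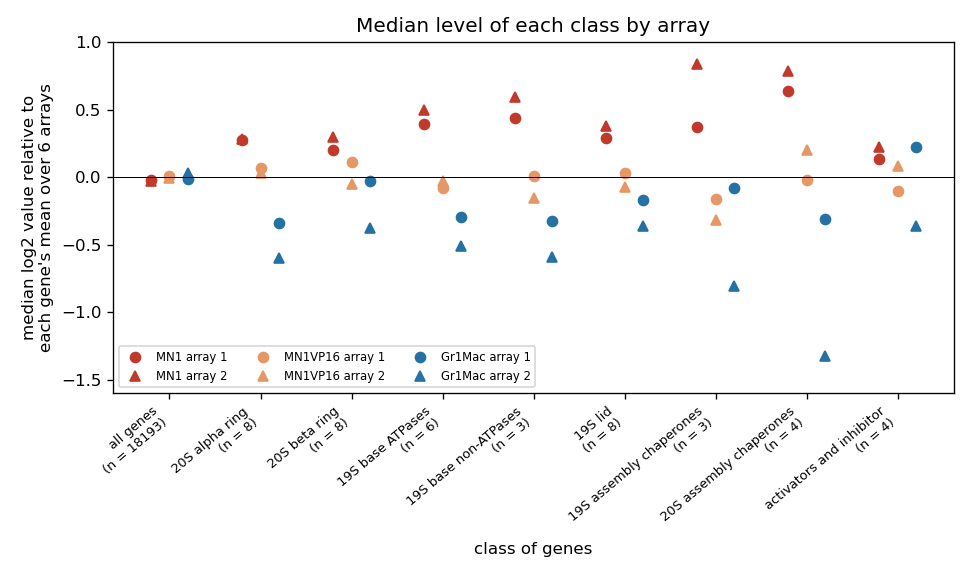
For each class of proteasome genes, the points give the median over its genes of the log2 value relative to the gene's own mean over the 6 arrays, one point per array. In the 19S base ATPases the MN1 arrays stand at 0.40 and 0.50, the MN1VP16 arrays at -0.08 and -0.03 and the Gr1Mac arrays at -0.29 and -0.51, while all genes together stay between -0.03 and 0.03.

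The base of the 19S cap was higher as a whole ring: all 6 ATPases, which unfold substrates and open the core's gate, were called higher in MN1, with a median of 0.84 log2 units. Psmc1 read 10.51 and 10.53 (MN1), 9.89 and 9.78 (MN1VP16) and 9.55 and 9.25 (Gr1Mac), a 2.17-fold difference (interval 1.62 to 2.91, limma adjusted p = 0.00581). Psmc6 had the smallest of the 6: it read 10.10 and 10.25, 9.89 and 9.79, and 9.55 and 9.60, a 1.52-fold difference (interval 1.17 to 1.97, limma adjusted p = 0.0301). In both genes the groups stood apart in the order MN1, MN1VP16, Gr1Mac, with no overlap. The remaining ATPases differed by 0.63 (Psmc2), 0.80 (Psmc3), 0.89 (Psmc4) and 1.08 (Psmc5) log2 units. Further bright probe sets of Psmc2 (0.53), Psmc4 (0.66) and Psmc6 (0.39 and 0.29) were not called. With the mean of each gene's probe sets, 4 of the 6 were called (16.3% of all genes). The count was 3 with the sex pattern as a block (12.8%), 3 with arrays centred on the median (13.7%) and 0 with the control feature split as a block (5.02%). The median of the 6 was 0.96 without Gr1Mac array 1, 0.70 without Gr1Mac array 2, 0.90 without MN1 array 1 and 0.79 without MN1 array 2. For all 6 genes the difference stayed above 0 in each of these.

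Among the other base subunits, Psmd1 and Psmd2, the large scaffold subunits that dock ubiquitin receptors and substrates, were called higher and Psmd4 was not. Psmd2 read 11.76 and 11.86 (MN1), 11.10 and 11.09 (MN1VP16) and 10.84 and 10.40 (Gr1Mac), a 2.28-fold difference (interval 1.64 to 3.17, limma adjusted p = 0.00696). Psmd1 differed by 0.97 log2 units. Psmd4, a ubiquitin receptor, read 11.00 and 11.08, 10.91 and 10.71, and 11.21 and 10.51, so the Gr1Mac arrays lay on both sides of the others; its difference was 0.18 with an interval of -0.44 to 0.81. The 2 other bright probe sets of Psmd4 gave 0.02 and -0.21.

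In the lid, 4 of 8 genes were called higher, against 17.3% of all genes. The count was 2 with the sex pattern as a block (12.8% of all genes), 1 with the control feature split as a block (5.02%) and 2 with arrays centred on the median (13.7%). The lid median of 0.63 became 0.65 without Gr1Mac array 1, 0.52 without Gr1Mac array 2, 0.68 without MN1 array 1 and 0.59 without MN1 array 2. Psmd7, the catalytically inactive partner of the deubiquitinase Psmd14, had the largest difference of all 46 genes: it read 10.02 and 10.06 (MN1), 8.77 and 8.68 (MN1VP16) and 7.62 and 7.10 (Gr1Mac). The 3 groups were clearly separate, and MN1 exceeded Gr1Mac 6.42-fold (interval 4.50 to 9.14, limma adjusted p = 0.00129). A dimmer Psmd7 probe set gave a much smaller difference: it read 7.999 and 8.30 (MN1), 7.08 and 7.15 (MN1VP16) and 7.67 and 6.91 (Gr1Mac), a difference of 0.86 that was not called when every probe set was fitted on its own (limma adjusted p = 0.0641). On that probe set the MN1VP16 arrays lay within the range of Gr1Mac. Psmd3 (1.02 log2 units), Psmd6 (0.89) and Psmd12 (0.76), lid scaffold subunits, were also called. Psmd14 itself read 12.15 and 12.23, 11.87 and 12.01, and 11.76 and 11.62, a difference of 0.50 (interval 0.12 to 0.88, limma adjusted p = 0.0602) with MN1 above the other groups on every array. Psmd8, another lid subunit, had the lowest difference of all 46: it read 10.75 and 10.94, 10.97 and 10.70, and 11.53 and 10.69, a difference of -0.26 with an interval of -0.98 to 0.46. Its one high reading was Gr1Mac array 1, and without that array the difference was 0.16. Psmd11 and Psmd13 were not called on the probe sets used, although 2 other bright probe sets of Psmd11 were, at 1.05 and 0.76.

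**Figure D3:**
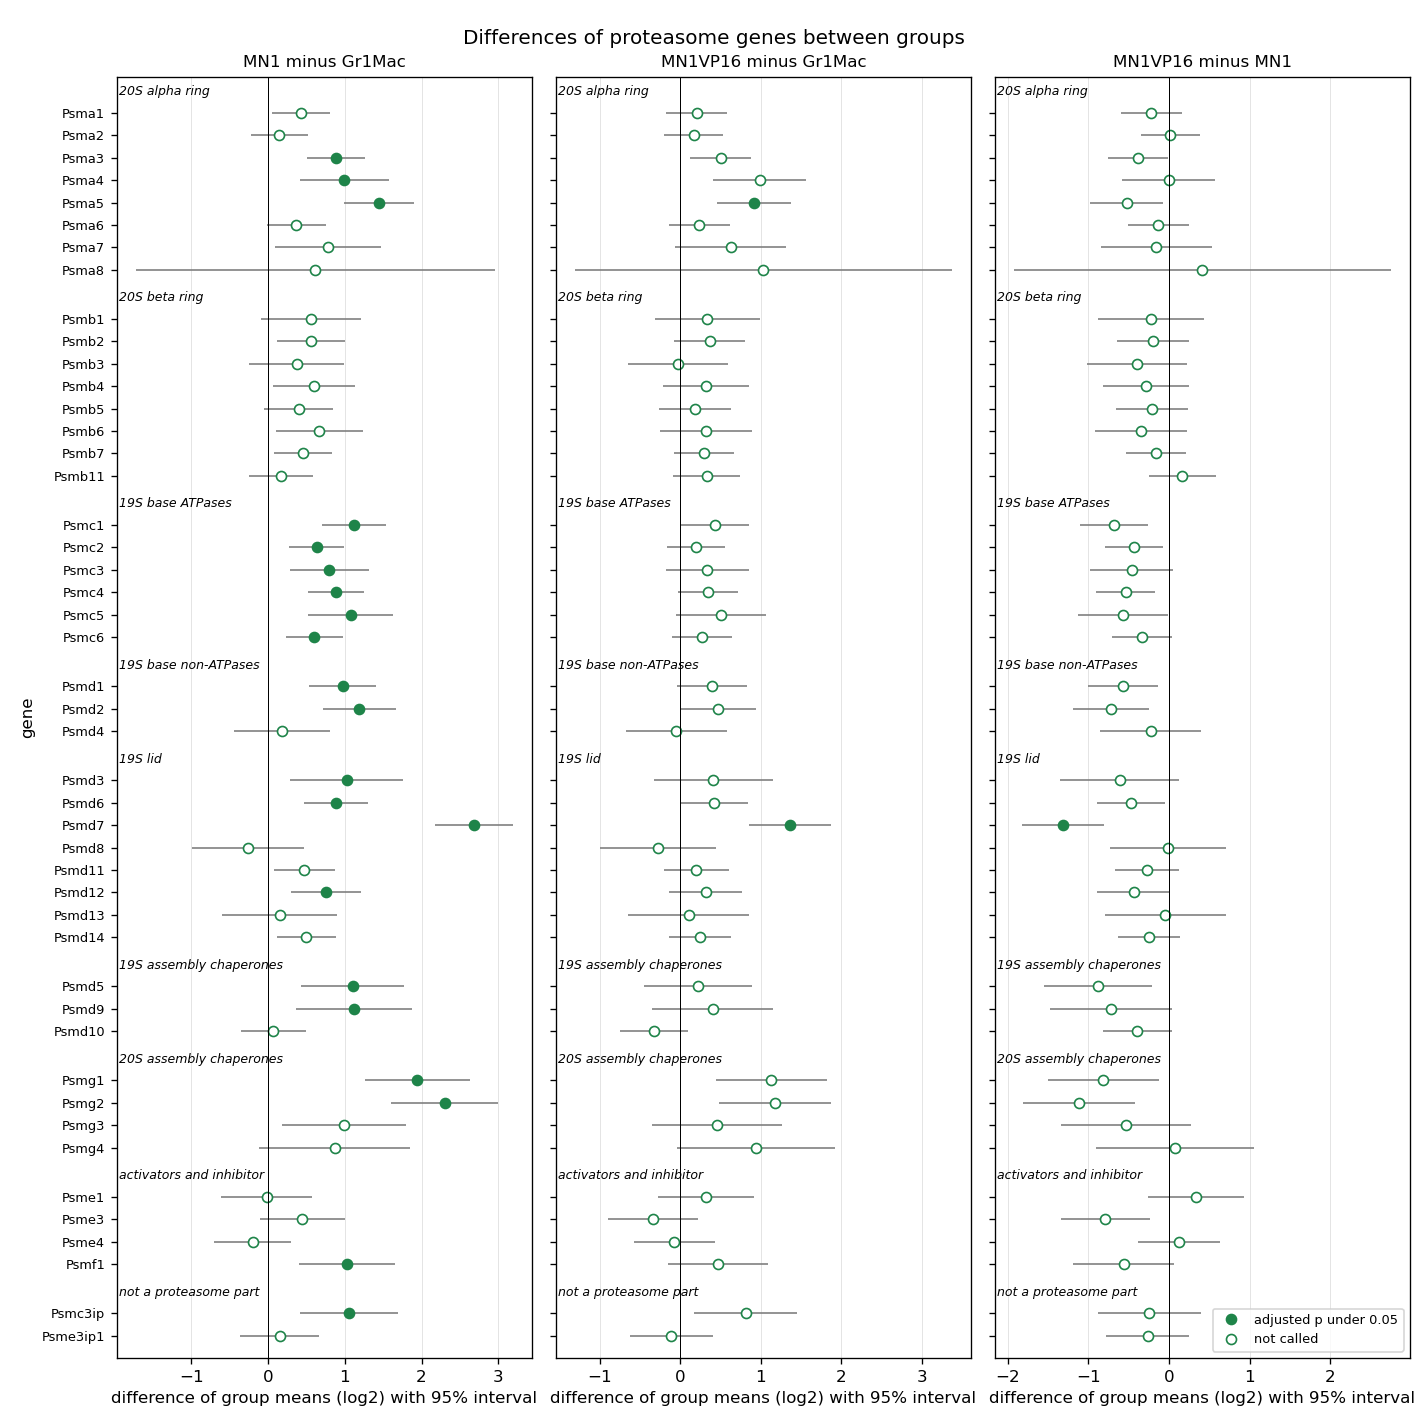
Differences of group means in log2 units, with 95% intervals, for each gene in the 3 comparisons; filled points passed an adjusted p of 0.05. In the left panel 21 points are filled, all to the right of 0, with Psmd7 at 2.68 the farthest; 2 are filled in the middle panel and 1, Psmd7 at -1.32, in the right panel.

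Of the 4 chaperones of the 20S core, 2 were called higher, and their median difference was 1.47 log2 units. Psmg1 and Psmg2, which together start the alpha ring, were both called. Psmg2 read 9.74 and 9.98 (MN1), 8.60 and 8.88 (MN1VP16) and 7.94 and 7.17 (Gr1Mac), a 4.93-fold difference (interval 3.05 to 7.96, limma adjusted p = 0.00321), and its other bright probe set gave 2.26 log2 units. Psmg1 read 10.54 and 10.70, 9.64 and 9.96, and 9.05 and 8.29, a 3.85-fold difference (interval 2.39 to 6.20, limma adjusted p = 0.00487). In both genes the 3 groups were separate and in the same order. Psmg3 and Psmg4, the partners that act next on the alpha ring, were not called. Psmg3 read 9.79 and 9.92, 9.37 and 9.27, and 9.38 and 8.36, a difference of 0.99 (limma adjusted p = 0.0727). Psmg4 read 8.66 and 8.65, 8.82 and 8.64, and 8.44 and 7.14, a difference of 0.87 (limma adjusted p = 0.169). In Psmg3 and Psmg4 Gr1Mac array 2 was far below Gr1Mac array 1. The median of the 4 chaperones was 1.92 without Gr1Mac array 1. Without Gr1Mac array 2 it was 1.02, Psmg3 was at 0.48 and Psmg4 at 0.22.

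Of the chaperones of the 19S base, Psmd5 and Psmd9 were called higher and Psmd10 was not. Psmd9 read 8.88 and 9.36 (MN1), 8.68 and 8.12 (MN1VP16) and 8.30 and 7.70 (Gr1Mac), a 2.17-fold difference (interval 1.29 to 3.67, limma adjusted p = 0.0407). Psmd5 differed by 1.10 log2 units. The X-linked Psmd10, known as the oncoprotein gankyrin, read 8.53 and 8.69, 8.29 and 8.14, and 8.67 and 8.41, so that the MN1 and Gr1Mac arrays overlapped; the difference was 0.07 with an interval of -0.35 to 0.49. Neither Psmd5 nor Psmd9 was called without Gr1Mac array 2, without either MN1 array, or with the sex pattern or the control feature split as a block.

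None of the 3 measured activators of the core was called, while its inhibitor was called higher. Psmf1, which encodes the inhibitor PI31, read 9.24 and 9.56 (MN1), 8.80 and 8.88 (MN1VP16) and 8.70 and 8.04 (Gr1Mac), a 2.04-fold difference (interval 1.33 to 3.15, limma adjusted p = 0.0281). Its 2 other bright probe sets gave larger differences, 1.93 and 1.49 log2 units, and both were called. The dimmer of them, at 1.49, was above the guide level on the MN1 arrays alone (6.59 and 6.95), so it counts as bright only through MN1. On the brighter of them MN1 read 8.33 and 8.60, MN1VP16 7.35 and 7.03, and Gr1Mac 6.59 and 6.47. Psme1, a subunit of the interferon-inducible PA28 activator, read 11.27 and 11.05, 11.47 and 11.52, and 11.50 and 10.85, a difference of -0.02 with an interval of -0.61 to 0.58. The Gr1Mac arrays enclosed the MN1 arrays. Psme4, the activator PA200, read 10.13 and 10.16, 10.12 and 10.42, and 10.55 and 10.14, a difference of -0.20 with an interval of -0.70 to 0.31. Psme3, the nuclear activator PA28 gamma, read 9.32 and 9.57, 8.55 and 8.76, and 9.25 and 8.73, a difference of 0.45 with an interval of -0.11 to 1.01; MN1VP16 had the lowest mean. A further bright Psme3 probe set was called higher in MN1, at 1.07.

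The other two genes that the symbol rule found are not proteasome parts. Psmc3ip read 8.21 and 8.45 (MN1), 8.02 and 8.15 (MN1VP16) and 7.62 and 6.92 (Gr1Mac), a 2.08-fold difference (interval 1.34 to 3.24, limma adjusted p = 0.0277). Psme3ip1 read 9.72 and 9.53, 9.49 and 9.23, and 9.68 and 9.26, a difference of 0.15 that was not called. Without both, 20 of 44 genes were called higher and the median difference was 0.65.

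Set by compartment, 12 of 17 cap subunits and 3 of 16 core subunits were called higher in MN1, with median differences of 0.80 and 0.56 log2 units. Of all genes 17.3% were called higher, and the core's share was near that. Without the dimmest 40% of genes, which leaves out Psma8 and Psmb11, the counts were 12 of 17 and 3 of 14, against 27% of all genes left. This is a description of the lists, with no test of the difference between them, and it moved with the setting. With the mean of each gene's probe sets the counts were 10 of 17 and 6 of 16. They were 7 and 2 with the sex pattern as a block, and 1 and 2 with the control feature split as a block, where the order turned. Of all genes, 16.3%, 12.8% and 5.02% were called higher in these 3 fits. Of the 46 genes, 20 had further bright probe sets, 28 in all, that the differences above did not use. Of those 28, 24 gave a difference above 0 between MN1 and Gr1Mac and 10 were called higher and 0 lower, in a fit of every probe set on its own in which 15.0% of all probe sets were called higher and 11.6% lower. Among the 10 called, the Psmf1 probe set at 1.49 was above the guide level on the MN1 arrays alone. A call came only from such a further probe set in 4 genes: Psmb1, Psmb4, Psmd11 and Psme3. The reverse was seen in Psmc2, Psmc4, Psmc6, Psmd6 and Psmd7, which were called only on the probe set used. Their further bright probe sets gave 0.53 (Psmc2), 0.66 (Psmc4), 0.39 and 0.29 (Psmc6), 0.44 (Psmd6) and 0.86 (Psmd7). Some probe sets used, such as those of Psmc2 and Psma6, carry a suffix that marks possible cross-hybridisation to similar sequences.

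**Figure D4:**
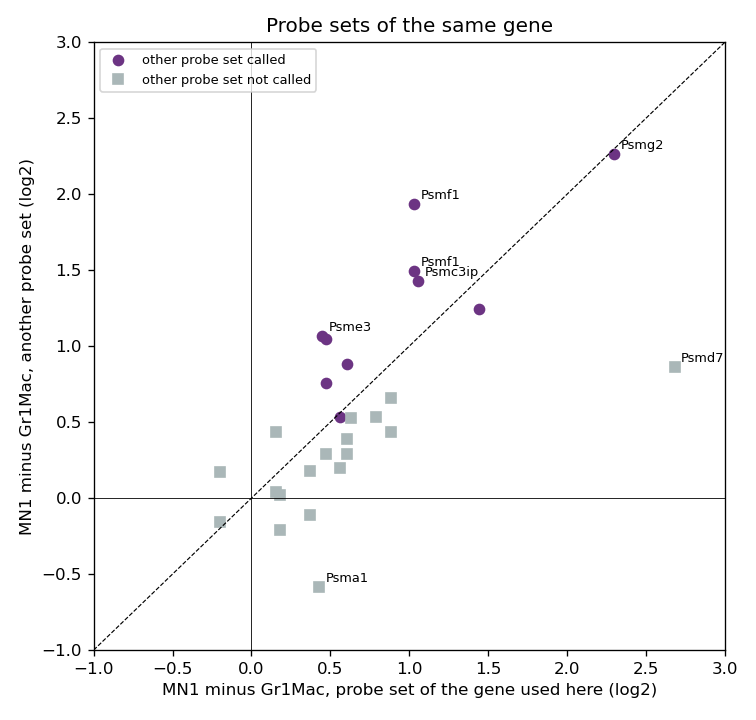
For genes with more than 1 bright probe set, the MN1 minus Gr1Mac difference in log2 units of the probe set used (horizontal) against that of another one (vertical); the dashed line marks equality. Psmg2 lies on the line, Psmf1 and Psme3 above it, and Psmd7 far below it, at 2.68 against 0.86.

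Between MN1VP16 and Gr1Mac cells, few proteasome genes passed the test. The median difference was 0.33 log2 units, against a median near 0 for all genes, and 39 of 46 lay above 0. Called higher were 2 of the 46, Psmd7 and Psma5, and 0 were called lower. Of all genes, 3.66% were called higher and 2.11% lower, so the share called, 4.35%, was near that of all genes. Without the dimmest 40% of genes, 2 of 44 proteasome genes were called higher, against 7.17% of all genes left. Both MN1VP16 arrays read above both Gr1Mac arrays in 29 of the 46, against 24.8% of all genes, and below them in 1, against 25.2%. That gene was Psmd10, at -0.32. Psmd7 was 2.57-fold higher (interval 1.81 to 3.67, limma adjusted p = 0.0267), and Psma5 1.89-fold (interval 1.38 to 2.59, limma adjusted p = 0.0475). The chaperones Psmg2 (1.18 log2 units, limma adjusted p = 0.069) and Psmg1 (1.13, limma adjusted p = 0.0741) had larger differences than Psma5 but were not called. The activators Psme1 (0.32) and Psme3 (-0.34) and the inhibitor Psmf1 (0.47) were not called either. Psmd7's call did not hold on its dimmer probe set, which gave -0.18.

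The median difference moved with single arrays: it was 0.53 without Gr1Mac array 1 and 0.20 without Gr1Mac array 2. It was 0.30 without MN1VP16 array 1 and 0.35 without MN1VP16 array 2. Over all genes these medians ran from -0.02 to 0.02. Without MN1VP16 array 1 the one gene called was Psma8, through its lone high reading on MN1VP16 array 2. Within the Y-high arrays (2 MN1VP16 and Gr1Mac array 2) the median difference was 0.53 and 44 of 46 lay above 0, and within the control feature side that holds MN1VP16 array 2 and both Gr1Mac arrays it was 0.30.

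Between the constructs, 1 of the 46 genes was called lower in MN1VP16 than in MN1 and 45 were not called. That gene, Psmd7, was lower 2.49-fold (difference -1.32, interval -1.83 to -0.81, limma adjusted p = 0.035), and 0 genes were called higher, where 2.70% of all genes were called lower and 1.15% higher; the share of proteasome genes called lower, 2.17%, was near that of all genes. The median difference was -0.34 log2 units against 0.03 over all genes, with 6 of 46 above 0. With the sex pattern as a block, which compares these groups only through the Gr1Mac arrays, the median was -0.047, 22 of 46 lay above 0 and 0 were called by limma. That block left 0 of all 18193 genes called in this comparison. At an unadjusted limma p under 0.05, 14 of the 46 differed, as did 4091 of all 18193 genes. Both MN1VP16 arrays read below both MN1 arrays in 34 of the 46, against 29.2% of all genes, and above them in 1, Psme1, against 30.5%. Psmg2 (-1.12, limma adjusted p = 0.0886), Psmg1 (-0.82), Psme3 (-0.79), Psmd2 (-0.72) and Psmc1 (-0.68) were not called, although both MN1VP16 arrays read below both MN1 arrays, and Psme1 was at 0.34 with an interval of -0.26 to 0.93. Psmf1 was not called on the probe set used (-0.56). Its 2 other bright probe sets were called lower, at -1.28 and -1.25, when every probe set was fitted on its own. The probe set at -1.25 was above the guide level on the MN1 arrays alone.

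Without MN1VP16 array 1 a gene was called higher, Psma8, for which the remaining MN1VP16 array is the one at 7.36. The call of Psmd7 was absent without MN1 array 1, without MN1 array 2, without MN1VP16 array 1 and without MN1VP16 array 2, each of which leaves 1 array in a group. Psmd7's call was also absent with the sex pattern or the control feature split as a block. With the mean of each gene's probe sets it was absent too, and another proteasome gene was called lower instead. Psmd7's dimmer probe set gave -1.04 and was not called when every probe set was fitted on its own (limma adjusted p = 0.0993). On the control feature side that holds MN1 arrays 1 and 2 and MN1VP16 array 1 the median difference was -0.32. No array set of one sex pattern holds both groups. The 3 comparisons share arrays, so they are not independent of one another.

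The genes around the proteasome were taken from 6 lists. Of the 3 immunoproteasome subunits, 0 were called between MN1 and Gr1Mac by limma in either direction, and 0 at an unadjusted p under 0.05. Psmb8 read 10.63 and 10.50 (MN1), 11.24 and 11.60 (MN1VP16) and 11.16 and 10.14 (Gr1Mac). Psmb9 read 10.33 and 10.10, 11.02 and 11.57, and 11.23 and 10.49, and Psmb10 read 10.36 and 9.86, 10.95 and 11.12, and 10.69 and 9.34. In all 3, both MN1VP16 arrays were above both MN1 arrays, which held for 30.5% of all genes. The differences were 0.85, 1.08 and 0.93 log2 units, with limma adjusted p of 0.216, 0.112 and 0.287. The sex pattern splits these groups in the same way.

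Of 10 measured partners and assembly factors, 5 were called higher and 1 lower in MN1 than in Gr1Mac, with a median difference of 0.72. The shares over all genes were 17.3% higher and 12.0% lower. Txnl1, a thioredoxin-like protein bound to the cap, was 2.48-fold higher, Fbxo7, an F-box protein that binds PI31, 2.33-fold, and Ecpas, an adaptor of the proteasome, 2.21-fold. Sem1, a small lid subunit whose symbol does not match the rule, was 2.04-fold lower (limma adjusted p = 0.0131); it read 12.09 and 11.86 (MN1), 12.69 and 12.25 (MN1VP16) and 13.02 and 13.00 (Gr1Mac), and is named here after its values were seen. Its groups stood in the reverse order of Psmd7's. The core's maturation factor Pomp was not called (0.44).

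Of 13 transcription factors of proteasome genes and their activators, 0 were called higher and 3 lower, where 17.3% of all genes were called higher and 12.0% lower, with a median of -0.21. Nfe2l1, the factor known for raising proteasome genes when the proteasome is inhibited, read 8.34 and 8.20 (MN1), 8.07 and 8.03 (MN1VP16) and 8.54 and 8.52 (Gr1Mac), a difference of -0.26 that was not called. Nfe2l2, its relative of the oxidative stress response, was called lower by 1.71-fold (limma adjusted p = 0.0182), Mafg, a small Maf partner of both, by 2.94-fold, and Stat3 by 3.73-fold. All arrays of Gr1Mac were above those of MN1 in these 3 genes.

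Shuttle factors and the p97 unfoldase, which bring ubiquitylated proteins to the proteasome, had 6 of 11 genes called higher and 0 lower, with a median of 0.65. The shares over all genes were 17.3% higher and 12.0% lower. Ubqln4 was 3.48-fold higher (limma adjusted p = 0.00191): it read 9.11 and 9.16 (MN1), 8.40 and 8.63 (MN1VP16) and 7.48 and 7.20 (Gr1Mac). Rad23b was 2.24-fold and Ubqln2 1.94-fold higher. In the list of ubiquitin genes and E1 enzymes 3 of 8 entries were measured, and Uba6, one of the ubiquitin-activating enzymes, was called higher, 1.74-fold.

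The peptidases that trim proteasome products went both ways, with 7 of 12 called higher and 3 lower in MN1. Of all genes, 17.3% were called higher and 12.0% lower. Thop1, a cytosolic endopeptidase, read 8.34 and 8.50 (MN1), 6.89 and 7.09 (MN1VP16) and 5.42 and 4.69 (Gr1Mac), where both arrays were under the guide level, a difference of 3.37 log2 units (limma adjusted p = 0.00129). Lap3, a leucine aminopeptidase, read 9.38 and 9.52, 8.32 and 8.55, and 6.98 and 5.84, an 8.22-fold difference. Rnpep, an aminopeptidase for basic residues, was 4.03-fold lower, at 8.88 and 8.35, 9.96 and 9.72, and 10.84 and 10.40. In these peptidases too the MN1VP16 arrays lay between the other groups.

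In MN1VP16 against Gr1Mac, where 3.66% of all genes were called higher and 2.11% lower, 4 of the 52 measured genes of the 6 lists were called higher, Ecpas (0.86 log2 units), Ubqln4 (1.17), Thop1 (1.94) and Lap3 (2.02), and 2 lower, Nfe2l2 (-0.86) and Npepps (-1.01), a puromycin-sensitive aminopeptidase. Each of these calls was lost in some alternative fit. Against MN1, 1 of the 52 was called higher in MN1VP16, Stat3 (1.29), and 1 lower, Thop1 (-1.43). Of all genes, 1.15% were called higher and 2.70% lower, so these counts were near those shares. With the sex pattern as a block neither was called, as 0 of all genes were called in that comparison.

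**Figure D5:**
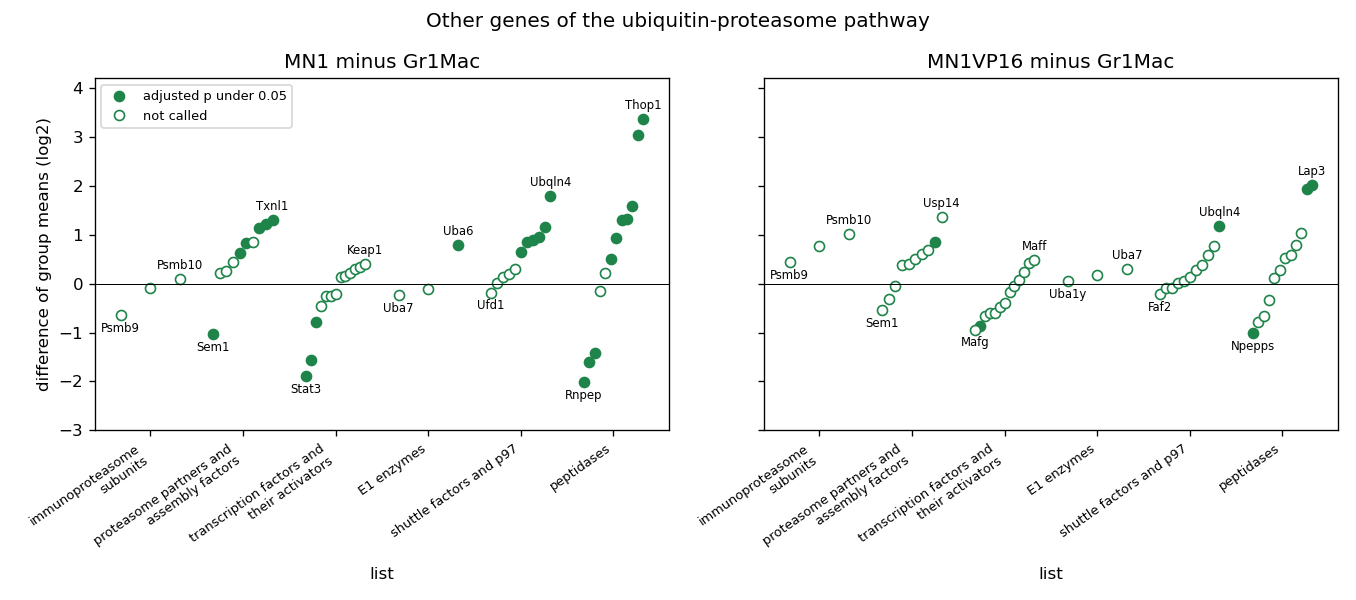
Differences from Gr1Mac in log2 units for the genes of the 6 lists, sorted within each list, for MN1 (left) and MN1VP16 (right); filled points passed an adjusted p of 0.05 and the genes at the ends of each list are named. In MN1 the filled points of the shuttle list all lie above 0, those of the transcription factor list all below, and the peptidases reach from -2.01 (Rnpep) to 3.37 (Thop1).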

How the data were processed

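Gene expression was measured on 6 arrays, 2 for each of 3 groups. Per the submitters' processing notes, the authors used RMA to make the deposited log2 values, 1 per probe set; its version is not given in the sources used here. Since RMA gives all arrays the same distribution, it hides a change in the total RNA of a cell, and it compresses the differences of dim genes.

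Of 45037 ordinary probe sets (64 control features were left out), the platform annotation names exactly 1 gene for 34945, several for 932 and none for 9160; a RefSeq table (GRCm38.p6) matched 34741 of them and changed 0 symbols. Keeping the brightest probe set of a gene gave 18193 genes. limma 3.58.1 in R 4.3.3 was fitted to the 6 arrays by group alone (3 residual and 3.03 prior degrees of freedom), with Benjamini-Hochberg adjustment over all genes within a comparison and a call at an adjusted p under 0.05. Folds are 2 to the power of a difference. Arrays with 18193 genes, all given the same spread, were simulated. On them the fit recovered at least 88% of changes of 1 log2 unit in each comparison. Spread in the real data was uneven, so that share does not carry over to them. The median within-group standard deviation of the proteasome genes was 0.30 in Gr1Mac and 0.098 in MN1. With 2 arrays a group, no exact permutation test can go below 0.333. The number of arrays limits the precision.

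The genes and the lists were chosen with earlier results of these data known. Values on each array are given, by a written rule, for the gene with the highest and the lowest difference in each role, for the catalytic, germ cell and thymus subunits, activators, inhibitor, core chaperones, Psmd4, Psmd10, Psmd14 and Psmc3ip, for genes called between MN1VP16 and MN1, and for at most 3 called genes of each list with the largest differences, with the immunoproteasome genes, Pomp, Nfe2l1 and Nfe2l2 besides. Alternatives were blocks for the replicate number, the sex pattern and the control features, array weights, a trended prior, other probe set rules, a filter on dim genes, other scalings, a fit of the compared groups only, and leaving out each array. The fit without Psmc3ip and Psme3ip1 and the fit of every probe set on its own were added after the data were seen.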

Additional observations from a re-analysis of the deposited data

How the results depend on the processing

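Between MN1 and Gr1Mac, the count of 21 genes called higher became 11 with the sex pattern as a block, 4 with the control feature split as a block, 13 with arrays centred on the median, and 5 to 25 when 1 array was left out; 0 were called lower in any of these. Of all genes, 12.8% were called higher with the sex block, 5.02% with the control feature block and 13.7% with median centring. The median of 0.65 became 0.50 with the sex block, 0.53 with the mean of all probe sets of a gene, 0.39 with median centring, and 0.50 to 0.87 with 1 array left out. Median centring moved the median of all genes from -0.06 to -0.32 and their calls from 3147 higher and 2187 lower to 2484 and 4003; relative to all genes the proteasome median stayed at 0.71. Psmd7 and Psmg2 kept their calls in all 17 alternatives, Psmc6 in 2, Psmd3 in 6 and Psmc3 in 7. Among the 56 genes whose differences are given, 35 of them called, a sign turned only in genes not called. With median centring these were Psma2 (-0.11), Psmb11 (-0.09), Psmd10 (-0.19), Psmd4 (-0.075), Psme3ip1 (-0.10) and Psmb10 (-0.16). With the sex block they were Psmd10 (-0.057), Psmd4 (-0.17), Psme3ip1 (-0.058) and Psmb10 (-0.58). With the control feature block they were Psmd10 (-0.082), Psmd4 (-0.021), Psme3ip1 (-0.10), Psme1 (0.039), Psme4 (0.10), Psmb8 (0.27) and Pomp (-0.15). With the mean of all probe sets they were Psmd4 (-0.003) and Psmb8 (0.11), and with centring on the brightest 25% of genes Psme1 (0.001). With 1 array left out the sign turned in Psmd10 (-0.057 to 0.20), Psmd4 (-0.17 to 0.53), Psmd8 (-0.68 to 0.16), Psme1 (-0.34 to 0.31), Psme3ip1 (-0.058 to 0.37), Psme4 (-0.41 to 0.010), Psmb8 (-0.59 to 0.43) and Psmb10 (-0.58 to 0.77).

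Between MN1VP16 and Gr1Mac, the count of 2 called higher became 1 with the replicate block (2.63% of all genes), 7 with the sex block (5.6%) and 1 with the control feature block (1.5%). It was 1 with array weights (1.68%), 0 with the mean of all probe sets (3.04%) and 1 without probe sets of the _x_at, _s_at and _a_at kind (3%). It was 1 with median centring (2.91%), 4 with centring on the brightest 25% of genes (5.25%) and 0 with only the groups compared (0.995%). Fits with 1 array left out mostly called fewer of these genes, and fewer of all genes too. The median of 0.33 became 0.53 with the sex block, 0.13 with median centring, and 0.20 to 0.53 with 1 array left out. Psma5 turned to -0.093 without the suffixed probe sets, where it is read by a probe set under the guide level. With 1 array left out the sign turned in Psma8 (-0.59 to 2.65) and Psme1 (-0.001 to 0.64).

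Between MN1VP16 and MN1, the count of 1 called lower became 0 with the sex block, 0 with the control feature block, 4 with array weights, 2 with centring on the brightest 25% of genes and 0 to 1 with 1 array left out, and the count of 0 called higher became 0 to 1, through Psma8, which ran from -1.21 to 2.03 with 1 array left out and was -1.21 with the control feature block. The median of -0.34 became -0.047 with the sex block, which compares these groups only through the Gr1Mac arrays, and -0.26 with the mean of all probe sets; Psmf1 turned to 0.094 with the sex block. With the replicate number as a block, 18 genes were called higher in MN1 than in Gr1Mac, 1 in MN1VP16 than in Gr1Mac, and 1 lower in MN1VP16 than in MN1. Deviations of same-numbered arrays correlated at -0.05, -0.05 and 0.08 over all genes; over the proteasome genes alone they correlated at 0.488 for MN1 with MN1VP16, and at -0.05 and 0.06 for MN1 and MN1VP16 with Gr1Mac. No label says that a number marks a shared mouse or day, so the numbers were not taken to pair the arrays. Where 1 array was left in a group, it was assumed to vary like the other groups. The causes of these changes were not tested. With 2 arrays a group, the median standard error of a proteasome gene's difference was 0.21. That value is not a limit above which a difference stands out from the spread. Between MN1 and Gr1Mac, Psmb5 differed by 0.40 with a standard error of 0.18, and its interval, -0.05 to 0.84, still held 0.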
